A study of Mus musculus with 6 samples.

Results

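The transected sciatic nerve and the dorsal root ganglia (DRG) that hold the cell bodies of its sensory axons were compared with each other at day 5 after injury, on 1 Illumina MouseRef-8 array each. The array of the injured nerve carried RNA of the left nerve, in which the segments on both sides of the transection had been pooled, and the array of the DRG carried RNA of the L4 and L5 ganglia of the injured side. Each array held a pool of 6 adult female C57Bl6 mice (C57BL6/J in the methods), and the study describes the nerve and DRG as taken from the same animals. There was 1 pool a side, so neither tissue has a replicate, and no test between the tissues was possible. Of 25697 probes, 23978 carried a gene symbol, and 14472 of these were detected above the negative controls in at least 1 of the 2 tissues. They stood for 10584 of 16593 genes, with 8525 detected in both tissues, 1028 in the nerve only and 1031 in the DRG only. The same pair of tissues without injury served as a reference. It consisted of the control nerve and the control DRG, which the labels call normal tissue of the right side and the methods call sham-operated, and which are called sham here. The title of the day 5 nerve array carries the codes of both time points, and its source name gives day 5. The spinal cord at day 5 and the nerve at day 1 were used only where named.

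A peripheral nerve contains axons but no neuronal cell bodies. Its own RNA comes mostly from Schwann cells, fibroblasts, perineurial cells, endothelium and, after injury, from macrophages that enter to clear myelin and axon debris. The DRG contains the cell bodies of sensory neurons, wrapped by satellite glia, together with myelinated axon stretches, and axotomy switches on a growth programme in those neurons, led by transcription factors such as ATF3 and c-Jun. Schwann cells that lose contact with axons stop making myelin, divide and take on a repair state.

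Signals were fluorescence intensities scaled to a common array median. A gene was called higher in a tissue if it was detected there and its signal was at least 2-fold that in the other tissue. If the gene was undetected in the dimmer tissue, the floor of detection of that array (119 in both) stood in, and the fold is a lower bound written "at least". The 95% intervals were computed from the bead-to-bead error on each array. They cover bead error only and leave out background, scaling, the choice of probe and the spread between animals. In RNA from whole tissue, fewer cells of a type and less RNA per cell cannot be told apart.

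At this threshold, 1319 genes (12.5% of 10584) were higher in the day 5 nerve and 1264 (11.9%) in the day 5 DRG. Of the nerve genes 1185 were detected in both tissues, and of the DRG genes 984. The DRG side reached further: 475 genes (4.49%) were at least 4-fold and 189 (1.79%) at least 10-fold higher in the DRG, against 359 (3.39%) and 46 (0.435%) in the nerve. The median log2 difference over all 10584 genes was 0.01. In the sham pair, 1141 of 10397 genes (11.0%) were higher in the nerve and 1251 (12%) in the DRG, and the median was 0.05. Across genes, which are not independent replicates, the log2 signals of nerve and DRG correlated at r = 0.858 on day 5 and 0.872 in the sham pair.

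**Figure D1:**
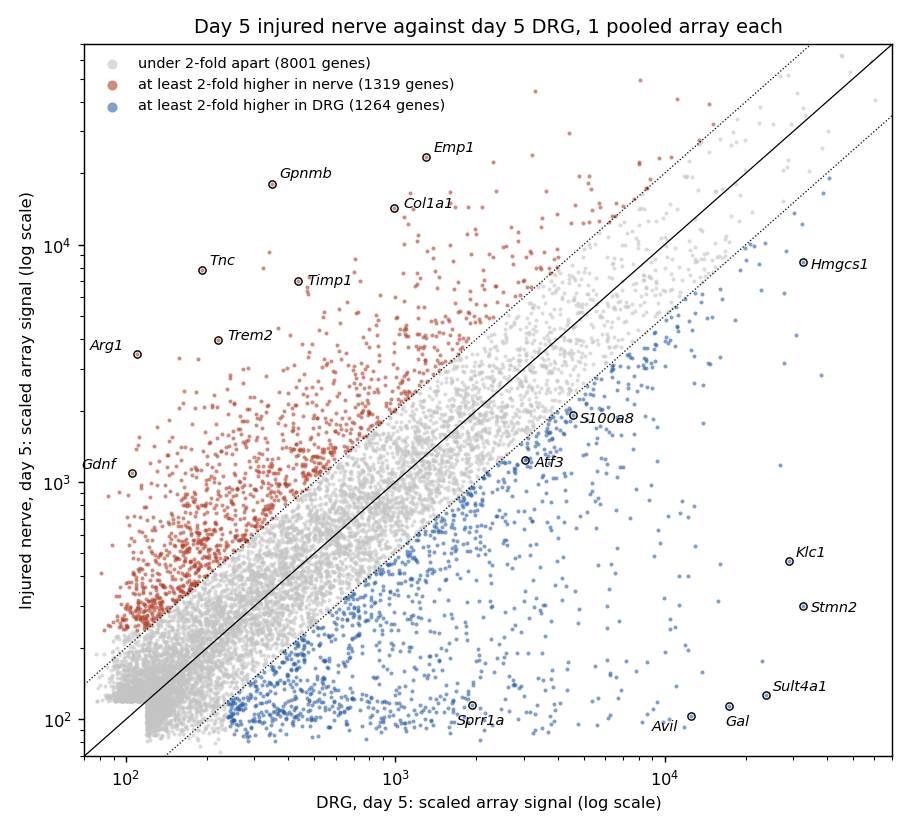
Scaled signal of each of 10584 genes in the day 5 DRG (x axis, log scale) and the day 5 injured nerve (y axis, log scale), 1 point per gene and 1 pooled array per tissue. The solid line marks equal signals and the dotted lines 2-fold. Gpnmb, Tnc and Arg1 lie far above the lines, and Sult4a1, Stmn2, Klc1, Gal and Avil far below.

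Among genes detected in both tissues, the highest fold toward the nerve was that of Gpnmb, a transmembrane glycoprotein of lipid-laden macrophages. Its signal was 1025 in the sham nerve, 18064 in the day 5 nerve, 316 in the sham DRG and 350 in the day 5 DRG. The nerve was 51.6-fold higher on day 5 (95% interval 44.8 to 59.5) and 3.25-fold higher in the sham pair. Tnc, the matrix glycoprotein tenascin-C, had signals of 200 and 7809 in the sham and day 5 nerve and of 118 and 192 in the sham and day 5 DRG. It was 40.6-fold higher in the nerve on day 5 (33.4 to 49.4). For both genes the day 5 nerve stood above the other 3 arrays, which were far closer to each other.

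Thbs2, encoding the matricellular protein thrombospondin-2, and Ccl9, a chemokine of myeloid cells, followed with 27.6-fold and 24.7-fold, and Hp, encoding the haemoglobin-binding protein haptoglobin, with 21.1-fold. Trem2, a lipid receptor of macrophages, was 18-fold higher, with signals of 203, 3951, 142 and 219 in the sham nerve, day 5 nerve, sham DRG and day 5 DRG. Emp1 (18-fold), Wfdc17 (17.8-fold), Timp1 (16.1-fold), Loxl1 (15.4-fold), Emilin2 (14.7-fold) and Ppic (14.6-fold) completed the 12 highest. Loxl1 crosslinks elastin, and Emilin2 is a glycoprotein of elastic fibres. Emp1, Thbs2, Hp and Loxl1 were already 6.48-fold, 6.18-fold, 9.30-fold and 4.80-fold higher in the nerve of the sham pair. Gpnmb, Ccl9, Wfdc17, Emilin2 and Ppic were also more than 2-fold higher there, whereas Tnc, Trem2 and Timp1 were within 2-fold.

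Genes that the DRG array did not detect gave lower bounds. Arg1, encoding arginase 1 of alternatively activated macrophages, had a signal of 3466 in the day 5 nerve and 110 in the day 5 DRG, at least 29.1-fold higher in the nerve. Clec4d, a lectin receptor of myeloid cells, was at least 13.0-fold higher, Btc, encoding the EGF receptor ligand betacellulin, at least 12-fold, and Ccl4, a chemokine, at least 11.5-fold. Gdnf, Fcna, Dpep2 and Mmp12 were at least 9.16-fold, 8.15-fold, 7.91-fold and 7.65-fold higher. Of these 8 genes, Fcna, which encodes a ficolin that recognises microbial sugars, differed from the rest in the sham nerve. Its signal was 940 there and 971 on day 5, while the others were between 102 and 156 in the sham nerve.

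Toward the DRG, Sult4a1, a neuronal member of the sulfotransferase family, had signals of 189 and 127 in the sham and day 5 nerve and of 27793 and 23669 in the sham and day 5 DRG. It was 186-fold higher in the day 5 DRG (160 to 217). Cplx1, encoding complexin 1 of the synaptic release machinery, was 131-fold higher (114 to 150), and Stmn2, encoding the tubulin-binding growth protein stathmin 2, 109-fold (93.4 to 128). Stmn2 had signals of 1103, 299, 19368 and 32677 in the sham nerve, day 5 nerve, sham DRG and day 5 DRG. Its fold toward the DRG was 17.6 in the sham pair, so the tissues were further apart on day 5 from both sides.

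Fgf13, an intracellular regulator of sodium channels, was 86.4-fold higher in the DRG. Slc17a6, the vesicular glutamate transporter VGLUT2, was 79.8-fold higher, Klc1, a kinesin light chain, 62.0-fold, and Eef1a2, a translation factor of neurons and muscle, 61.9-fold. Ccdc92, Syngr3, Fbxo2, Stmn3 and Atp1b1 were 57.6-fold, 54.7-fold, 52.0-fold, 51.8-fold and 50.0-fold higher. For Klc1 the probes disagreed: 4 probes were higher in the DRG and 1 was higher in the nerve, with signals of 2367 in the nerve and 941 in the DRG. Kif1b and Syngr1 were the only other called genes with detected probes at least 2-fold apart in opposite directions. Of 762 called genes with more than 1 detected probe, 321 had all detected probes called the same way.

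Where the nerve array did not detect the gene, Gal, encoding the neuropeptide galanin, was at least 145-fold higher in the DRG, with a signal of 17283 there and 114 in the nerve. Avil, encoding the actin-binding protein advillin of sensory neurons, was at least 105-fold higher, Scn11a, the sodium channel Nav1.9 of nociceptors, at least 98.8-fold, and Prph, the intermediate filament peripherin, at least 82.7-fold. Cpne6, Bex2, Nefh and Vstm2l were at least 86.9-fold, 78.9-fold, 75.7-fold and 72.1-fold higher. Gal was 13.4-fold brighter in the day 5 DRG than in the sham DRG, while Avil, Scn11a and Prph were within 2-fold of it.

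The spinal cord array showed which of the genes far higher in the DRG were also detected there. Of the 189 genes at least 10-fold higher in the DRG, 183 were also detected in the spinal cord and 136 in the sham nerve. Of all probes, 53.4% were detected in the spinal cord and 50.9% in the sham nerve. Detection in whole spinal cord does not say which cells held the RNA. Scn11a, Pirt and Scn10a were detected in none of the sham nerve, day 5 nerve and spinal cord. Pirt is a membrane regulator of the TRPV1 channel, and Scn10a encodes the sodium channel Nav1.8. Pirt had signals of 3147 and 3174 in the sham and day 5 DRG and of 97.1, 107 and 111 in the sham nerve, day 5 nerve and spinal cord. Scn10a had 1721 and 1352 in the DRG and 98.9, 98.7 and 90.8 in the others. These 3 genes thus had a signal only on the DRG arrays among the 5 compared.

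The markers of the labelled tissues followed the labels, with exceptions that concern single probes. Of 25 pan-neuronal genes detected, 22 were higher in the day 5 DRG and 0 in the nerve. Their summed signal over 26 measured genes was 171200 in the day 5 DRG and 156570 in the sham DRG, against 16157 and 19998 in the day 5 and sham nerve. Isl1 and Pou4f1, transcription factors that define sensory neurons, had signals of 3884 and 3495 in the day 5 DRG and were not detected in the nerve. Snap25, a synaptic protein of neurons, was detected in neither tissue, and Tubb3, the neuronal tubulin, was at 130 in the day 5 DRG and below detection in the nerve. Both genes are known to be expressed by sensory neurons, so the label of the DRG array rests on the other markers.

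Macrophage genes made up the strongest list on the nerve side. Of 30 detected macrophage and monocyte genes, 28 were higher in the day 5 nerve and 0 in the DRG, with a median log2 difference of 2.84. Without injury 14 of 27 were higher in the nerve and the median was 1.09. Lyz2, encoding lysozyme, had signals of 5678 and 44452 in the sham and day 5 nerve and of 1582 and 3295 in the sham and day 5 DRG. C1qc, a chain of the complement component C1q, had signals of 2326, 9356, 525 and 1311 in that order. The exceptions were Itgam and Cx3cr1, both within 2-fold. The summed signal of the 32 measured genes was 30731 in the sham nerve, 204328 in the day 5 nerve, 11958 in the sham DRG and 21900 in the day 5 DRG. Bright members such as Lgals3 and Lyz2 weigh heavily in these sums. By gene, 28 of 30 were at least 2-fold above sham in the nerve, beside 6.30% of all genes. In the DRG 6 of 27 were, beside 0.854% of all genes.

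The other immune lists varied. Of 11 toll-like receptors and partners, 9 were higher in the day 5 nerve, among them Tlr2 and Tlr13, against 3 in the sham pair, and of 27 chemokines 14 were. Chemokines higher in the nerve included Ccl2, Ccl7, Ccl8 and Cxcl16, and the only one higher in the DRG was Ccl27a. Cxcl9 and Cxcl10, which attract T cells, differed by less than 2-fold between the tissues, with Cxcl10 at 294 in the day 5 nerve and 465 in the day 5 DRG. MHC class II genes, which present antigen, were higher in the nerve for 6 of 9, and lysosomal cathepsins for 7 of 13. For comparison, 12.5% of all genes were higher in the nerve. Of 8 detected lymphocyte genes 2 were higher in the nerve (25%), Nkg7 and Ccl5, beside 12.5% of all genes, and nothing is read from so small a count. The call of Nkg7 ended without scaling, in the processed table of the authors and with a stricter detection limit.

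Neutrophil genes were split between the tissues. Of 13 detected, 5 were higher in the nerve and 5 in the DRG (38.5% each), beside 12.5% and 11.9% of all genes. S100a8, encoding a calcium-binding alarmin, had signals of 152 and 1908 in the sham and day 5 nerve and of 5922 and 4549 in the sham and day 5 DRG. S100a9, its partner, was also higher in the DRG, and so were Ltf, Ngp and Camp, whose products fill granules while neutrophils mature in bone marrow. Ltf was 5.63-fold higher in the DRG (4.89 to 6.49) and 9.51-fold in the sham pair, and Ngp and Camp were not detected in either nerve. Retnlg, Fpr2, Slpi, Csf3r and Hp were higher in the nerve. Retnlg, a resistin-like secreted protein, had signals of 167, 2203, 439 and 317 in the sham nerve, day 5 nerve, sham DRG and day 5 DRG.

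Cell division genes set the tissues apart after injury and hardly before. Of 20 detected genes, 16 were higher in the day 5 nerve, with a median log2 difference of 2.01, and 1 was higher in the DRG. Before injury the counts were 1 and 1 of 17. Top2a, encoding topoisomerase II alpha, had signals of 143 and 988 in the sham and day 5 nerve and of 115 and 124 in the sham and day 5 DRG. Cdk1, the kinase that drives mitosis, was 9.11-fold higher in the nerve (7.95 to 10.4), and Uhrf1, which maintains DNA methylation at replication, 11.0-fold (9.24 to 13.0). Kif22, a mitotic kinesin, was the member that went the other way, with 717 in the day 5 nerve and 2391 in the day 5 DRG. Prc1, a midzone protein of the spindle, was brighter after injury in both tissues, from 262 to 4403 in the nerve and from 384 to 1098 in the DRG.

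Extracellular matrix genes belonged to the nerve with or without injury. Of 15 collagen chains, 14 were higher in the day 5 nerve and 13 in the sham nerve, with medians of 2.58 and 2.27. Col1a1, a chain of fibrillar collagen I, was 14.3-fold higher on day 5 and 6.90-fold in the sham pair. Col3a1 was 13.6-fold and 10.7-fold higher, and Col18a1, a basement membrane collagen, 10.9-fold and 2.92-fold. Of 14 matrix glycoproteins and proteoglycans 11 were higher in the nerve, and of 10 laminins and basement membrane genes 5. Fibroblast and perineurial markers were higher in the nerve for 13 of 17 on day 5 and 14 of 17 in the sham pair.

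The matrix metalloproteinases and their inhibitors were at the centre of the study's question about the injured nerve. Of 12 detected metalloproteinase genes, 7 (58.3%) were higher in the day 5 nerve, beside 12.5% of all genes. In the DRG 2 (16.7%), Mmp24 and Mmp16, were higher, beside 11.9% of all genes. In the sham pair the counts were 4 and 1. Mmp9, which encodes gelatinase B, had signals of 247 and 605 in the sham and day 5 nerve and of 203 and 205 in the sham and day 5 DRG, 2.96-fold higher in the nerve on day 5 (2.46 to 3.56). Mmp14, a membrane-anchored collagenase, was 9.49-fold higher (8.14 to 11.1). Mmp13, a collagenase, was 1.96-fold higher and not called. Mmp16, a membrane type, had signals of 115, 120, 142 and 398 in the sham nerve, day 5 nerve, sham DRG and day 5 DRG.

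Timp1, the inhibitor that binds MMP-9, had signals of 381 and 7025 in the sham and day 5 nerve and of 202 and 436 in the sham and day 5 DRG. It was above its sham signal in both tissues, by 18.4-fold in the nerve and 2.16-fold in the DRG, and 16.1-fold higher in the nerve than in the DRG on day 5 (14.3 to 18.2). Timp2 and Timp3 were within 2-fold between the tissues. Lcn2, whose product lipocalin-2 forms a complex with MMP-9, was 2.43-fold higher in the DRG, and Cd44, which docks MMP-9 at the cell surface, was 1.70-fold higher in the nerve and not called. Without injury Cd44 had been 2.29-fold higher in the DRG.

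Myelin genes showed the loss of a tissue difference. In the sham pair, 12 of 14 detected myelin genes were higher in the nerve, with a median log2 difference of 2.35. On day 5 only Egr2, Gldn and Pmp2 were, and the median was 0.21. In the nerve, 11 of the 14 were at least 2-fold below their sham signals (5.09% of 10121 genes were), whereas in the DRG 0 were (0.324% of 10191). Fa2h, the hydroxylase of myelin galactolipids, had signals of 18077 and 2620 in the sham and day 5 nerve and of 2901 and 2926 in the sham and day 5 DRG. Ugt8a, which makes galactosylceramide, had 18820, 2752, 2692 and 2244, and Mal, a myelin proteolipid, 8475, 1545, 1301 and 1547. For these 3 genes the day 5 nerve was within 2-fold of both DRG arrays. Pmp2, a lipid-binding protein of myelin, kept the highest difference, 4.07-fold (3.55 to 4.68), and Egr2, the transcription factor of myelination, was 2.01-fold higher (1.72 to 2.36). The call of Egr2 ended without scaling and with scaling to the probes detected in both tissues.

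Sterol and fatty acid synthesis, which supplies membrane lipid for myelin, went past equality. In the sham pair 3 of 18 genes were higher in the nerve and 0 in the DRG, with a median of 0.68, and on day 5 0 were higher in the nerve and 13 in the DRG, with a median of -1.45. In the nerve 17 of the 18 were at least 2-fold below sham, and in the DRG 0 were. Hmgcs1, the HMG-CoA synthase, had signals of 50330 and 8430 in the sham and day 5 nerve and of 29487 and 32715 in the sham and day 5 DRG. Fdps, farnesyl diphosphate synthase, had 7883, 931, 7921 and 7806, and Sqle, squalene epoxidase, 3589, 638, 5557 and 5538. For these 3 genes the 2 DRG arrays were within 2-fold of each other, and the day 5 nerve was the array that stood apart. Adipocyte markers were lower as well: Adipoq, encoding adiponectin, went from 8573 in the sham nerve to 2073 in the day 5 nerve, and 7 of 9 adipocyte genes detected in either nerve were at least 2-fold below sham on day 5. The part of fat tissue in these values was not tested.

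**Figure D2:**
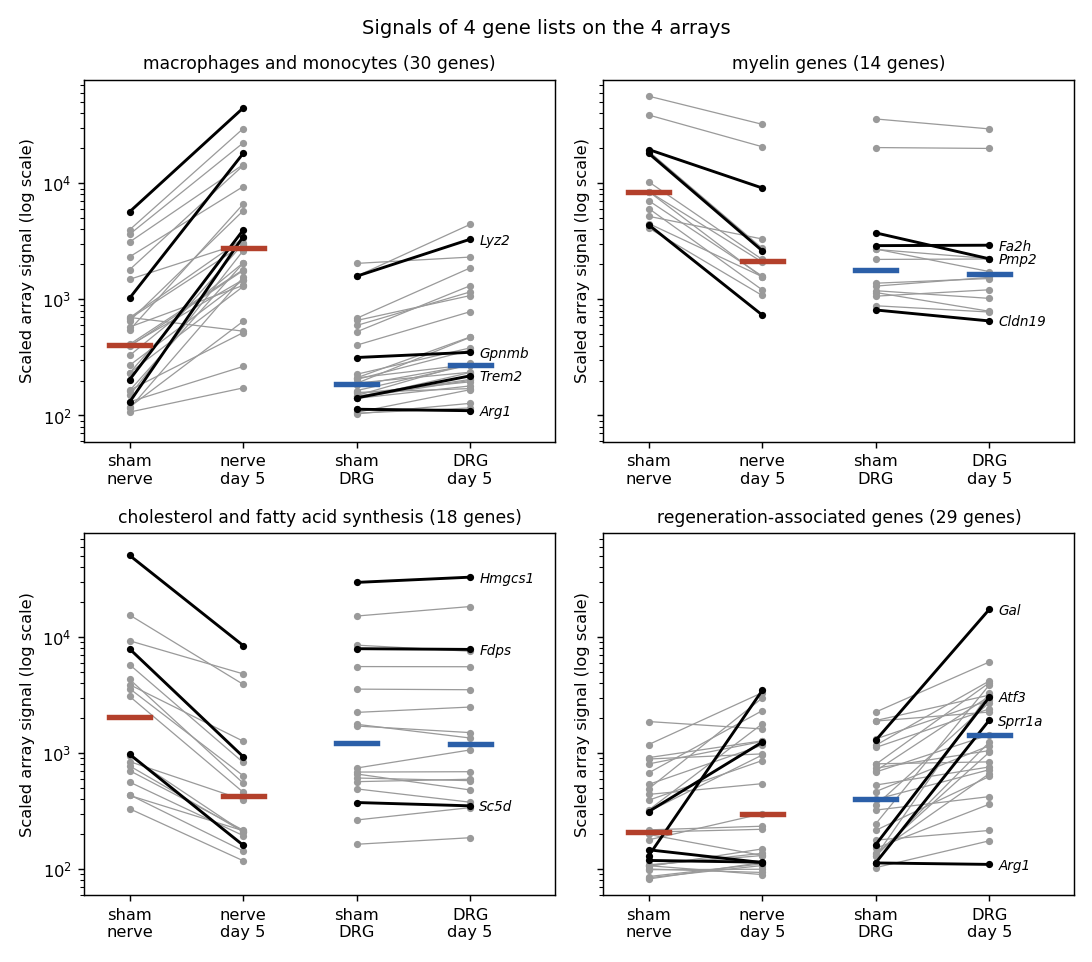
Scaled signals (y axis, log scale) of each detected gene of 4 lists on the sham nerve, day 5 nerve, sham DRG and day 5 DRG arrays. Lines join the 2 arrays of a tissue, black lines are named genes, and bars mark the median of the list, red for nerve and blue for DRG. Macrophage genes are high in the day 5 nerve, myelin genes of the day 5 nerve lie at the DRG level, lipid synthesis genes lie below it, and regeneration-associated genes are high in the day 5 DRG.

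Of 14 detected Schwann lineage and repair genes, 5 (35.7%) were higher in the day 5 nerve, beside 12.5% of all genes. In the DRG 2 (14.3%), S100b and Ncam1, were higher, beside 11.9% of all genes, and nothing is read from that count. Shh, encoding the morphogen Sonic hedgehog, had signals of 163 and 2517 in the sham and day 5 nerve and of 579 and 427 in the sham and day 5 DRG. Gdnf, a neurotrophic factor for sensory and motor neurons, was at 1092 in the day 5 nerve and between 105 and 119 on the other 3 arrays. Btc was detected in the day 5 nerve only among the 4. Cdh19, a cadherin of Schwann cell precursors, was 704 in the day 5 nerve and 299 in the day 5 DRG. Ngfr, the p75 neurotrophin receptor, was within 2-fold on day 5, at 4198 and 5868, after 837 and 5857 in the sham nerve and sham DRG.

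The sensory neuron lists stood on the DRG side with or without injury. Of 25 detected sensory identity genes, 20 were higher in the day 5 DRG and 22 in the sham DRG, with medians of -2.73 and -2.47. The 1 gene higher in the nerve on day 5 was Slc17a8, the vesicular glutamate transporter VGLUT3. Neuropeptides were higher in the DRG for 12 of 14, synaptic vesicle and release genes for 15 of 18, and neurofilaments, tubulins and axonal transport genes for 20 of 25. Sodium channels were called in the DRG for 4 of 8, calcium channels for 5 of 11, potassium channels for 13 of 25 and transmitter-gated receptors for 10 of 23. For comparison, 11.9% of all genes were higher in the DRG. Kcnk6, a two-pore potassium channel, and P2rx4, a purinergic receptor of microglia and macrophages, were the members of these channel lists that were higher in the nerve.

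Thy1 and Syt4 narrowed the distance between the tissues. Thy1, a surface glycoprotein of neurons and other cells, had signals of 1323 and 8276 in the sham and day 5 nerve, and its fold toward the DRG was 12.2 in the sham pair and 2.71 on day 5 (2.35 to 3.13). Syt4, a synaptotagmin, had 766 and 3083, with folds of 8.29 and 3.24 (2.78 to 3.77). Both had signals in the DRG within 2-fold of sham.

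Regeneration-associated genes, the growth programme of axotomized neurons, were higher in the day 5 DRG for 17 of 29 and in the nerve for 3, Socs3, Anxa1 and Arg1. In the sham pair the counts were 9 and 2 of 28. In the DRG 19 of 28 detected were at least 2-fold above sham (0.854% of 10191 genes were), and in the nerve 9 of 22 (6.30% of 10121). Many genes of the list were chosen in the field because they respond to axotomy in the DRG, so its count there is a description of known responders. Sprr1a, a small proline-rich protein that promotes axon outgrowth, had a signal of 1921 in the day 5 DRG and was not detected on the sham nerve, day 5 nerve or sham DRG arrays. It was at least 16.1-fold higher in the DRG than in the nerve on day 5. Npy, encoding neuropeptide Y, had signals of 108 and 137 in the sham and day 5 nerve and of 246 and 3859 in the sham and day 5 DRG, 28.2-fold higher in the DRG (24.8 to 32). Gpr151, an orphan receptor, Cckbr, the cholecystokinin B receptor, and Ecel1, a metallopeptidase of injured neurons, were at least 27.8-fold, 10.4-fold and 8.54-fold higher.

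Atf3 was above sham in both tissues, and on day 5 it was higher in the ganglion. Its signals were 314 and 1242 in the sham and day 5 nerve and 163 and 3035 in the sham and day 5 DRG. The sham nerve had been 1.93-fold above the sham DRG, and on day 5 the DRG was 2.44-fold above the nerve (2.12 to 2.82). In all, 25 genes were at least 2-fold above sham in both tissues, which is 3.92% of the 638 genes so called in the nerve and 28.7% of the 87 in the DRG. On day 5 13 of them were higher in the nerve, 4 (Atf3, Flrt3, Kif22 and Srxn1) in the DRG, and 8 (Jun, Jpt1, Cxcl10, Plin2, Akr1b8, Cxcl9, Gadd45a and Tubb6) within 2-fold. Gadd45a, a stress gene of growth arrest, reached 2980 in the nerve and 4031 in the DRG from 493 and 800. Tubb6, a beta-tubulin, reached 3313 and 2722 from 1184 and 355.

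Energy metabolism leaned to the DRG. Of 42 oxidative phosphorylation genes 0 were called in the nerve and 9 in the DRG, among them Cox5a, a subunit of cytochrome c oxidase, at 5919 and 16248 in the day 5 nerve and DRG. This is 21.4% of the list, beside 11.9% of all genes, and the median was -0.71. In the sham pair 5 of 42 were called in the DRG, beside 12% of all genes, and the median was -0.46. Of 18 glycolysis genes 9 were higher in the DRG on day 5, and 9 of 19 already in the sham pair, with medians of -0.97 and -0.94. Aldoc, a brain-type aldolase, was at 125 and 2994 in the day 5 nerve and DRG. Hk2, the hexokinase of muscle and of activated cells, was the member higher in the nerve, 6.08-fold (5.21 to 7.09). Hox genes, which mark the position along the body axis, were called in the DRG for 6 of 20 and in the nerve for 0. The shares of all genes were 11.9% and 12.5%, and in the sham pair the counts for Hox genes were 7 and 0 of 22. Of 34 axon guidance genes 5 (14.7%) were higher in the nerve, among them Nrp1 and Slit2, and 2 (5.88%), Sema4f and Plxna2, in the DRG, beside 12.5% and 11.9% of all genes.

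**Figure D3:**
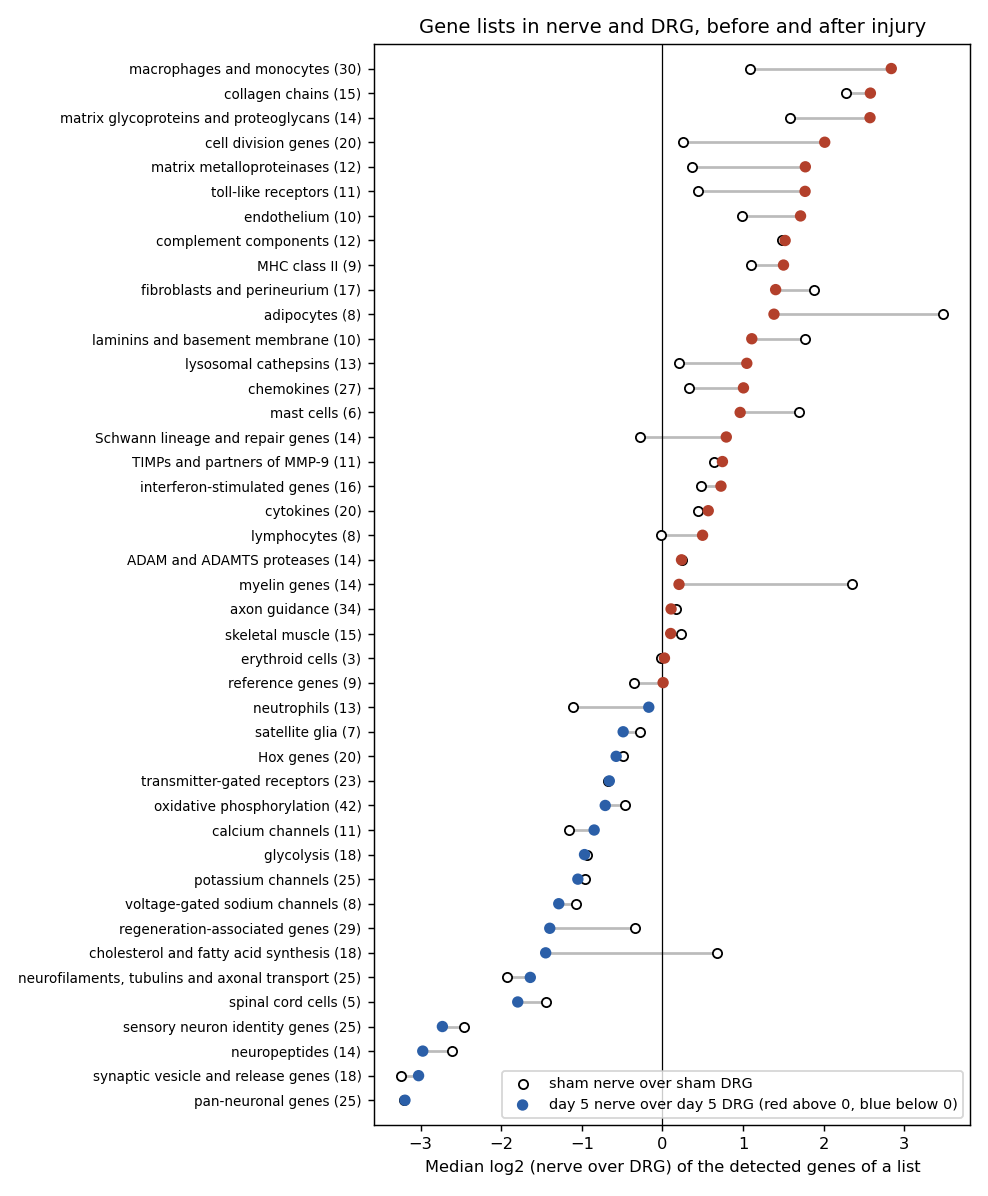
Median log2 difference of nerve over DRG (x axis) for the detected genes of 43 lists, with the number of detected genes on day 5 in parentheses. Open circles are the sham pair and filled circles the day 5 pair. Myelin genes moved from 2.35 to 0.21, lipid synthesis genes from 0.68 to -1.45, macrophage genes from 1.09 to 2.84 and cell division genes from 0.26 to 2.01, while the pan-neuronal genes stayed at -3.21 and -3.20.

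Secreted factors and their receptors were compared as 40 pairs, 30 with both genes measured and 21 with both detected in at least 1 tissue. Of these, the only pair with the ligand higher in the nerve and the receptor higher in the DRG was Gdnf and Ret, and 0 pairs ran the other way. Ret, the signalling receptor of the GDNF family, had signals of 190 and 149 in the sham and day 5 nerve and of 2214 and 3390 in the sham and day 5 DRG, 22.7-fold higher in the day 5 DRG (19.1 to 27.0). Gfra1, the co-receptor that binds GDNF, was dim in both, at 146 in the nerve and 170 in the DRG. Artn, encoding artemin, was at 226 in the day 5 nerve and not detected in the day 5 DRG, at least 1.89-fold and below the threshold. Its co-receptor Gfra3 was 7.55-fold higher in the DRG (6.64 to 8.58).

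In 5 pairs the ligand was higher in the nerve and the receptor within 2-fold. Apart from Osmr, these receptors were dim. Gfra1, Igf1r and Ptch1 lay between 125 and 170 in both day 5 tissues, and Itga9 was at 127 in the nerve and undetected in the DRG. So close to the floor of 119, a fold within 2 says little about the receptor. Igf1, insulin-like growth factor 1, had signals of 2148 in the day 5 nerve and 252 in the day 5 DRG, with Igf1r at 144 and 169. Osm, encoding oncostatin M, was at 284 in the day 5 nerve and not detected in the day 5 DRG, with its receptor Osmr at 1104 and 758. Both members were higher in the nerve for Gas6 and its receptor Axl, 2.79-fold and 7.05-fold, and for Tgfb1 and Tgfbr1, 2.49-fold and 3.00-fold, but Tgfbr1 fell below 2-fold when all its detected probes were averaged. Bdnf, encoding the neurotrophin BDNF, was 5.62-fold higher in the DRG, while its receptor Ntrk2 was at 581 in the nerve and 551 in the DRG. Ednrb, the endothelin B receptor, was 2.29-fold higher in the DRG.

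The order of nerve and DRG reversed between the sham and the day 5 pair for 15 genes, at least 2-fold one way before and at least 2-fold the other way after. Of the 1319 genes higher in the day 5 nerve, 632 were also higher in the sham nerve (47.9% of the day 5 list and 55.4% of the sham list). Of the 1264 higher in the day 5 DRG, 918 were also higher in the sham DRG (72.6% and 73.4%). More genes entered or left a list than reversed. On day 5 679 nerve genes and 339 DRG genes were called that were within 2-fold or undetected in the sham pair, while 509 genes higher in the sham nerve and 333 higher in the sham DRG were no longer called that way, the reversed genes included.

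The 8 genes that turned to the nerve were Retnlg, Chil3, Shh, Olig1, Slc17a8, F2r, Pde1b and Lcp1. Chil3, a chitinase-like lectin of macrophages, had signals of 117 and 1286 in the sham and day 5 nerve and of 265 and 217 in the sham and day 5 DRG. Shh was 3.54-fold higher in the DRG of the sham pair and 5.89-fold higher in the nerve on day 5 (4.93 to 7.04). Slc17a8 had signals of 107 and 1031 in the nerve and of 395 and 389 in the DRG. For these 3 genes the change lay in the nerve, and the DRG arrays stayed within 2-fold of each other.

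Olig1, a transcription factor of oligodendrocytes and injured Schwann cells, changed on both sides, with 106 and 409 in the sham and day 5 nerve and 967 and 106 in the sham and day 5 DRG. Its signal in the spinal cord was 12080. Of all probes, 54.4% were detected in the sham DRG, 53.1% in the day 5 DRG, 50.9% in the sham nerve and 53.5% in the day 5 nerve. Of 15 genes typical of spinal cord neurons and glia, 12 were detected in the sham DRG, 5 in the day 5 DRG, 3 in the sham nerve and 1 in the day 5 nerve. Their summed signals were 11323 in the sham DRG, 5870 in the day 5 DRG, 2641 in the day 5 nerve and 75852 in the spinal cord. Members below the floor of an array count at the floor in these sums. Cldn11 alone had 5887, 3391, 976 and 32342 in that order. Gad2, Slc6a5 and Chat, markers of inhibitory and motor neurons, were not detected in the sham DRG, at 80.7, 95.6 and 113. The part of these cells in the Olig1 values was not tested.

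The 7 genes that turned to the DRG were Septin3, Chst2, Elovl6, Inhbb, Kcnmb4, Sc5d and Mfsd2a. Septin3, a cytoskeletal GTPase, had signals of 1226 and 174 in the sham and day 5 nerve and of 433 and 637 in the sham and day 5 DRG. Elovl6 and Sc5d belong to fatty acid and sterol synthesis, and Mfsd2a transports lysophospholipids. Elovl6 had signals of 4315, 551, 1710 and 1500 in that order, and Sc5d 976, 161, 375 and 351. Chst2, a sulfotransferase, had 2392, 675, 909 and 2286, and Inhbb, the beta B subunit of activin, 688, 301, 202 and 812. Chst2 and Inhbb thus moved in both tissues, down in the nerve and up in the ganglion.

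**Figure D4:**
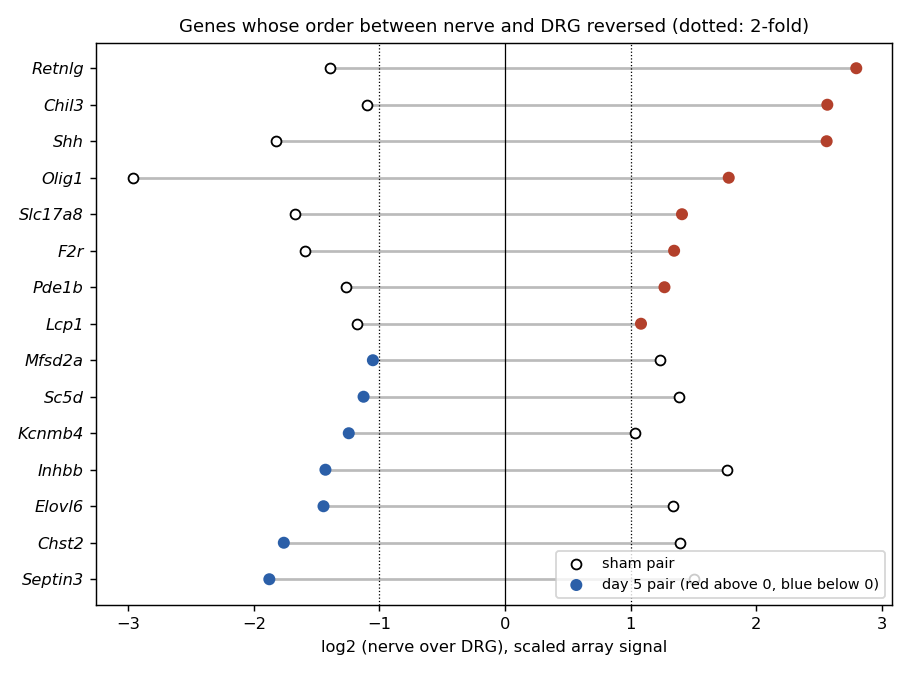
The log2 difference of nerve over DRG (x axis) of the 15 genes whose order reversed, in the sham pair (open circles) and the day 5 pair (filled circles), with dotted lines at 2-fold. Retnlg, Chil3 and Shh end furthest on the nerve side, and Septin3 and Chst2 furthest on the DRG side.

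Promoter sequences of 300 bases (250 before and 50 after the first start listed for a gene) were taken from RefSeq on GRCm38.p6 and matched to 1010 of the nerve genes and 986 of the DRG genes. The letters of 4 motifs were searched on both strands. The PU.1 motif GAGGAAGT, named for a factor of myeloid cells, occurred in 6.63% of promoters of nerve genes and 1.22% of those of DRG genes, against 2.95% of those of all detected genes and 3.28% of all 27025 promoters. The cAMP response element TGACGTCA occurred in 1.39% and 3.85%, against 3.03% and 1.88%. The AP-1 motif TGANTCA occurred in 6.73% and 4.77%, against 5.73% and 7.93%, and TATAAA in 11.9% and 7.20%, against 8.44% and 14.2%. The median number of CpG dinucleotides was 15 in nerve and 19 in DRG promoters, 20 for all detected genes and 7 for all promoters. For genes at least 4-fold apart the medians were 8 and 17. Motifs were counted separately, overlaps included. A match describes the letters only and is not a binding site.

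The promoters below, chosen after the values were seen, show these motifs in capitals for genes at the 2 ends of the comparison: AP-1 in Gpnmb and 2 copies in Sprr1a, PU.1 (as its reverse complement) in Mmp12 and C1qc, and the cAMP response element in Syn1. Copies of TATAAA are left in lower case. Each is written 5′ to 3′ along its gene. The printed windows of Mmp12 and Sprr1a hold 0 CpG, C1qc 3, Gpnmb 9 and Syn1, which encodes the vesicle protein synapsin 1, 33. A further start listed for Mmp12, with the window chr9:7347124-7347423, has no PU.1 motif. That window holds AP-1, TATAAA and 3 CpG. Syn1 had signals of 320 and 265 in the sham and day 5 nerve and of 9350 and 10450 in the sham and day 5 DRG.
Gpnmb, chr6:49036268-49036567, plus strand: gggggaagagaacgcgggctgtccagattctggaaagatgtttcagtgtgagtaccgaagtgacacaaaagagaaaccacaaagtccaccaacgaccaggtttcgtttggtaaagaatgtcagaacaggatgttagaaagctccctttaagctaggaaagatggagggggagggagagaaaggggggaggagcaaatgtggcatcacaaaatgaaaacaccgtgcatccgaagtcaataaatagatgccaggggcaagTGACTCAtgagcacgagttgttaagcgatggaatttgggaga
Mmp12, chr9:7344147-7344446, plus strand: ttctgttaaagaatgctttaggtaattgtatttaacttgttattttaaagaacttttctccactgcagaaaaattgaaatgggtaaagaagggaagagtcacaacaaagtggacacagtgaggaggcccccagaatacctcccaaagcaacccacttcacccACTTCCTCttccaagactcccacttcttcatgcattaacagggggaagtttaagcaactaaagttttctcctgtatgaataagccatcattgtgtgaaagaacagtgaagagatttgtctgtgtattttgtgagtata
C1qc, chr4:136892865-136893164, minus strand: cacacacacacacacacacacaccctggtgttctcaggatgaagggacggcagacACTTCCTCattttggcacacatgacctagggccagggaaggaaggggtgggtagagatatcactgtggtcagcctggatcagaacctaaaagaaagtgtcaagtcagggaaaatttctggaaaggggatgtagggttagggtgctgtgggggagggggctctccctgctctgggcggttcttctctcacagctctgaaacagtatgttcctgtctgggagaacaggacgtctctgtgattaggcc
Sprr1a, chr3:92485832-92486131, minus strand: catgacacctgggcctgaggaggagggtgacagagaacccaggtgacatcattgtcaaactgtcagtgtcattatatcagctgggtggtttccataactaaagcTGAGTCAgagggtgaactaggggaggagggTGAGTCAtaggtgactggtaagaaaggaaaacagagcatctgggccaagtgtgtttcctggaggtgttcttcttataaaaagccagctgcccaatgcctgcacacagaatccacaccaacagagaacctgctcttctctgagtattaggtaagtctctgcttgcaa
Syn1, chrX:20920869-20921168, minus strand: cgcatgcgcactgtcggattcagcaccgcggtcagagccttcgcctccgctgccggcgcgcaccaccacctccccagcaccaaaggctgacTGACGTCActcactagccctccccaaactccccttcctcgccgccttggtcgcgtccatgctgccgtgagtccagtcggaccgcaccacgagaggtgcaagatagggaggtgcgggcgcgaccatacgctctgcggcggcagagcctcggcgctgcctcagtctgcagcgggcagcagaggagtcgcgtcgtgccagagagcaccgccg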

How the data were processed

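RNA of 6 pools, 1 per condition, had been hybridised to Illumina MouseRef-8 version 2 BeadChips. The non-normalized table that the authors deposited holds, for each probe, an intensity (the mean of its beads, neither background-subtracted nor scaled between arrays), its standard error, a count of beads (median 38 to 40), and a p-value of detection set against negative control probes. The deposited p-value says only whether a probe was detected. The submitters' processing notes name Agilent Feature Extraction 10.5. A second deposited table holds processed intensities of the authors, whose columns share their quantiles (medians 121.6 to 121.7), although the paper describes normalization to the median; it served as an alternative.

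The median of all probes was made equal between arrays by scaling (factors 0.951 to 1.07). Of the probes 50.9 to 54.5% were detected, at a p-value under 0.05, and the probe closest inside this limit had 0.0489 and the closest outside 0.0501. Scaled signals under the lowest detected one of the array were set to it, also within the summed signals of a list. The brightest probe over the 6 arrays stood for its gene, 1719 probes carried no symbol, and the gene IDs of 16 annotated probes were not in the mouse gene table used for names. No background was subtracted, which pulls the folds of dim genes toward 1. Probes differ in brightness, so signals were compared within a gene. The day 5 pair and the comparison of each tissue with sham share an array, and their values are given side by side only.

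The genes, 43 gene lists and 40 ligand and receptor pairs were chosen with earlier results of these data known. Named were the 12 highest folds each way, the 8 highest bounds each way, the 4 brightest called members of each list and way with exceptions, genes of described pairs, reversed genes, and genes the study names. Genes added to these to illustrate a list (Scn10a, Pirt, Thy1, Syt4 and similar) were chosen after their values were seen. Python 3.11.15, pandas 2.3.3 and, for neqc and quantile normalization alternatives, limma 3.58.1 in R 4.3.3 were used.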

Additional observations from a re-analysis of the deposited data

Results flagged for a closer look

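After injury 4 genes moved in opposite directions in nerve and DRG by at least 2-fold. These differences were not tested, since each rests on 1 array per condition. Of all genes, 6.30% were at least 2-fold higher and 5.09% lower than sham in the nerve. In the DRG 0.854% were higher and 0.324% lower, and nothing is read from the count of 4. On the log2 scale of day 5 over sham, Cdkn1a, the cell cycle inhibitor p21, stood at -1.58 in the nerve and 1.16 in the DRG, Chst2 at -1.83 and 1.33, Inhbb at -1.19 and 2, and Olig1 at 1.72 and -3.02. Cdkn1a was within 2-fold between the tissues on day 5, at 2478 in the nerve and 4428 in the DRG.

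The nerve array of day 1, which the comparison did not use, held signals at least 2-fold above the sham nerve for 7 of the 12 genes with the highest folds toward the DRG. The share of all genes past 2-fold between these arrays was not computed, so nothing is read from the count. The folds of the day 1 nerve over the sham nerve were 5.54 for Sult4a1, 5.36 for Cplx1, 5.85 for Slc17a6, 2.74 for Klc1, 2.23 for Eef1a2, 2.58 for Syngr3 and 4.85 for Atp1b1. Genes of spinal cord neurons and glia moved the same way: 3 of 15 were detected in the sham nerve and 12 in the day 1 nerve. Their summed signals, with members below the floor counted at it, were 3907 and 6804, of which Cldn11 alone gave 2156 and 3396. Olig1 went from 106 to 901. The part of spinal cord cells in the day 1 folds was not tested. On day 5 the signals of Sult4a1 and Slc17a6 in the nerve were 127 and 138.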

How the results depend on the processing

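Each condition had 1 array, so leaving out a replicate was not possible, and no value here has a biological error. No paired analysis was possible because each condition had a single pooled array, although the tissues are described as from the same animals. Under the other scalings, detection limits, probe rules and the deposited processed table, the counts were 1174 to 1370 genes higher in the nerve, 1183 to 1411 higher in the DRG and 13 to 17 reversed. With neqc background correction, which subtracts background and so widens folds of dim genes, 1991 genes were higher in the nerve, 1699 in the DRG and 40 reversed. These included 1318, 1229 and 15 of those called before. The share of calls toward the nerve was 45.4 to 54.0%. The medians of 2 lists near 0, erythroid and reference genes, changed sign under some scalings. Among genes described, Nkg7, Egr2, Lcp1 and Tgfbr1 fell below 2-fold under at least 1 alternative: Nkg7, Egr2 and Lcp1 without scaling, Egr2 also with scaling to the probes detected in both tissues, Nkg7 also in the deposited processed table and at a detection p under 0.01, and Tgfbr1 with the mean of all detected probes.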
